A study of Mus musculus with 82 samples.

Results

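Nupr1, Clu, Sbspon, Zg16, Jam2, Enpp5, Ehd3, Plscr2, Cd38 and Aldh1a1 are 10 genes of the known aging signature of hematopoietic stem cells (HSCs), the rare self-renewing cells of the bone marrow from which every blood lineage arises. They were found by gene symbol, and each symbol matched 1 of the 55376 gene rows of the deposited count files. They were selected on their RNA level in these libraries, higher in old than in young HSCs, and on the prior signature, so each value that sets young against old HSCs, for RNA, accessible chromatin or H3K27ac, is given for them as a description, where a count past the cutoffs stands beside the share over all features and nothing is read from it. Young HSCs (YHSCs) came from C57BL/6J male mice 3 to 4 months old and old HSCs (OHSCs) from mice 24 to 26 months old, all of them wild type, and both were sorted as CD150+ CD34- Flk2- cells of the LSK gate (Lin- Sca-1+ c-kit+). In the knockdown experiments OHSCs received a lentivirus with a control shRNA (shControl) or with shRNA1 or shRNA2, both aimed at sequence found only in a shorter variant of Btaf1, and virus-carrying GFP+ cells were sorted. The cultured HSCs grew in polyvinyl alcohol medium with thrombopoietin and stem cell factor and were collected after 3.5 days. The transplanted HSCs were sorted as LSK CD48- CD150+ CD45.2+ cells more than 4 months after transfer into lethally irradiated young female CD45.1 recipients, which also received CD45.1 myeloid progenitors, and the labels give pooled recipients. Common myeloid (CMP), granulocyte-macrophage (GMP) and megakaryocyte-erythroid (MEP) progenitors were from young mice.

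The 10 genes carry out unlike tasks in a cell. Clu encodes clusterin, a secreted chaperone, Zg16 a secreted lectin, and Sbspon an extracellular matrix protein with somatomedin B and thrombospondin domains. Jam2 is a junction adhesion molecule, Enpp5 a membrane-bound member of the ENPP ectoenzyme family, and Cd38 a surface enzyme that consumes NAD. Ehd3 is an ATPase of endosomal recycling, and Plscr2 belongs to the phospholipid scramblases, which move lipids between the leaflets of a membrane. Nupr1 is a small chromatin protein of the stress response downstream of the transcription factor ATF4, and Aldh1a1 oxidizes retinaldehyde to retinoic acid. HSCs become more numerous with age, give more platelet-biased and myeloid-biased output, and perform less well per cell after transplantation, and studies of the aged HSC transcriptome have often named these genes as higher. BTAF1 is a Swi2/Snf2-type ATPase that regulates where the TATA-binding protein sits in the genome.

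Reads counted on genes numbered 20475764 to 24654742 per library in YHSCs (4 libraries) and OHSCs (8), 37292602 to 42737054 in cultured and 37601706 to 42142361 in transplanted HSCs (6 each), and 33177394 to 36510850 in progenitors (6). The 10 HSC marker genes summed to 4086 to 4145 CPM (counts in each 1000000 assigned to genes) in YHSCs and 3759 to 4299 in OHSCs, against 577 to 671 in GMP and MEP, where MEP had no reads of Procr or Hoxb5. Granulocyte and monocyte markers (6 genes) summed to 144 to 172 CPM in YHSCs, 306 to 351 in OHSCs and 56611 to 57821 in GMP, and Prtn3 alone was higher in OHSCs (a mean of 127 against 309 CPM), while the means of the other 5 were lower, Mpo for example at 7.79 against 0.794. B cell markers (7 genes) summed to 86.7 to 156 CPM in YHSCs and 36.8 to 44.9 in OHSCs, and T cell markers (4 genes) to at most 1.70 in either. Erythroid markers (7 genes) summed to 163 to 224 CPM in YHSCs and 47.5 to 208 in OHSCs, with mean levels of 141 and 8.11 for Car1, 12.4 and 3.17 for Klf1 and 3.09 and 35.1 for Hbb-bs. Megakaryocyte markers (8 genes) summed to 1366 to 1463 and 1404 to 1488 CPM, with Itga2b at 104 and 238. Their part in the age differences was not tested. Each young sample pooled several mice and each old sample was 1 mouse, so animal-to-animal differences are only partly in the young spread. In bulk samples fewer cells of a type and less RNA per cell cannot be told apart.

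Sequences are shown for accessible regions with a known blood transcription factor motif and for short promoter windows. Chromatin values below were read at these stretches of DNA. The distal Aldh1a1 window, however, overlapped no accessible region and no H3K27ac or H3K4me3 peak named for the gene. It lay only in a peak of H3K27me3, a mark of repressed genes (0.479 in YHSCs). Among 3 windows of 300 bases from regions that were more open in OHSCs, capitals mark the letters of 3 motifs searched on both strands. RUNX is TGTGGT, which reads ACCACA when reversed. The GATA motif is AGATAA. The AP-1 motif is TGACTCA. The genome is GRCm38, the plus strand is printed, the Clu window lies between genes, and those of Jam2 and Ehd3 lie in introns.
Clu, chr14:65965474-65965773: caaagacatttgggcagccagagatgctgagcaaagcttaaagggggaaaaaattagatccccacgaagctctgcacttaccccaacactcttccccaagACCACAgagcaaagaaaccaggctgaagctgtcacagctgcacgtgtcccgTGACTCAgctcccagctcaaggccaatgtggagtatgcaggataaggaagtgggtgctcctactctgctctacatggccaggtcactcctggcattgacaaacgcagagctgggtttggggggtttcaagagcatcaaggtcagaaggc
Jam2, chr16:84800002-84800301: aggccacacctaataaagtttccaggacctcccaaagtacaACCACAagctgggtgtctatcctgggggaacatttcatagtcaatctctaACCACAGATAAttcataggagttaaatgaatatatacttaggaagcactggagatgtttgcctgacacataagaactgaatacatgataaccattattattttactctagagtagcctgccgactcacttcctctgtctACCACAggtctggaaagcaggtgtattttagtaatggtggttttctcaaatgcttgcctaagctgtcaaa
Ehd3, chr17:73810834-73811133: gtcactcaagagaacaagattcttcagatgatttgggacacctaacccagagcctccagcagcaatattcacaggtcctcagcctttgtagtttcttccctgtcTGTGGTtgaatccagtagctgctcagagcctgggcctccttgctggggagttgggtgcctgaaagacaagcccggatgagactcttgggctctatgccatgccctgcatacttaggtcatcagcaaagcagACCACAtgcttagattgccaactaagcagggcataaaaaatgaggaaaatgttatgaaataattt
The Clu window holds 1 reversed RUNX and 1 AP-1 match, the Ehd3 window 2 RUNX matches in opposite directions, and the Jam2 window 3 reversed RUNX matches and 1 GATA match that runs on from the second of them, sharing its last base.

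RefSeq promoter entries (GRCm38.p6) were at hand for Nupr1, Cd38, Ehd3 and for both starts of Aldh1a1, but not for Clu, Sbspon, Zg16, Jam2, Enpp5 and Plscr2. The windows of 30 bases below run 5′ to 3′ on the strand of the gene, with the matched motif in capitals.
Cd38, chr5:43868766-43868795, plus strand, GATA, 31 bases before the start: gggaaaggaagcAGATAAaagcaagtgaaa
Nupr1, chr7:126625562-126625591, minus strand, reversed TGATGNAA, a composite motif of C/EBP and ATF proteins, 110 bases before the start: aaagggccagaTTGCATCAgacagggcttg
Aldh1a1 distal start, chr19:20492515-20492544, plus strand, AP-1, 57 bases before the start: gaaatgtcatcTGACTCAgtggggaaactg
Aldh1a1 proximal start, chr19:20601924-20601953, plus strand, GATA, 32 bases before the start: cttagtgcatgcAGATAAaaaggagcaagg
The composite motif was searched after the Nupr1 sequence had been seen. Distances are from RefSeq starts. In GENCODE Cd38, Nupr1 and Ehd3 begin farther upstream, so their promoter windows of 250 bases lie inside the gene spans. Up to 250 bases of the Cd38 window and up to 211 of the Nupr1 window are untranslated exon in GENCODE. Over all 32817 promoter windows of 250 bases, 9.99% hold AGATAA on either strand, 4.46% TGACTCA, 3.45% TGATGNAA, 14.0% TGTGGT and 12.4% TATAAA. The 5 windows of these genes held 2, 1, 1, 0 and 0 of them. Only exact letters were counted, so near matches to TATAAA were not, and a match does not show which protein binds. The Ehd3 window was the richest in CpG, with 16 against a median of 6, and 60.0% of its bases were G or C. Nupr1 had 59.2%, Cd38 48.8%, and Aldh1a1 42.8% at its distal and 46.4% at its proximal start, around a median of 52.4%.

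In the comparison of OHSCs with YHSCs, the level of each of the 10 genes was higher in every old library than in any young library, and each old library exceeded 1.5 times the highest young one. The log2 difference ran from 1.33 for Aldh1a1 to 4.89 for Sbspon, with a median of 1.96, where the median over all 21522 genes tested was −0.01. With cutoffs of 1.5-fold and 0.05 for the adjusted p, 4.69% of all genes were called higher in OHSCs, and in 7.07% of all genes the 8 old libraries lay above the 4 young ones. The genes were chosen for this contrast, so nothing is read from their count. Btaf1 itself, the gene targeted later, was 94.5 CPM in YHSCs and 133 in OHSCs, a log2 difference of 0.53 ± 0.09 (SE).

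Among the genes of secreted proteins, Sbspon (chr1:15853862-15892722, minus strand) stood at 2.30, 3.66, 3.08 and 2.86 CPM in the 4 young libraries. In the 8 old libraries it ranged from 63.0 to 101.2 CPM with a median of 85.8, which gave a log2 difference of 4.89 ± 0.19 (SE). Sbspon shares 2001 exonic bases with Gm37509 on the opposite strand, and no source used here gives the strand setting of the counting, so reads of both cannot be told apart. Zg16 (chr7:127050156-127087328, minus strand) had 2.34, 2.98, 2.58 and 2.40 CPM in YHSCs. Its level in OHSCs ran from 25.7 to 60.2 with a median of 40.9, a log2 difference of 4.10 ± 0.28. Sbspon and Zg16 thus showed the widest separation between ages. Clu (chr14:65968483-65981547, plus strand) was at 48.2, 42.5, 56.7 and 60.0 CPM in YHSCs and at 217 to 302 in OHSCs with a median of 253. Its log2 difference was 2.35 ± 0.13.

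Among the surface genes, Jam2 (chr16:84774123-84825928, plus strand) had 33.5, 37.0, 45.0 and 52.3 CPM in YHSCs. In OHSCs Jam2 ranged from 124 to 162 with a median of 142, a log2 difference of 1.81 ± 0.12. Enpp5 (chr17:44078813-44086567, plus strand) had 136.5, 137.0, 138.4 and 148.8 CPM in YHSCs and 334 to 429 in OHSCs with a median of 377. Its log2 difference was 1.45 ± 0.06. Cd38 (chr5:43868553-43912375, plus strand) had 36.24, 36.04, 51.0 and 50.2 CPM in YHSCs, and its 8 old libraries ranged from 93.9 to 119 with a median of 111. The log2 difference of Cd38 was 1.36 ± 0.12.

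For the membrane traffic genes, Ehd3 (chr17:73804134-73832094, plus strand) had 58.8, 54.7, 59.4 and 60.6 CPM in YHSCs and 198 to 269 in OHSCs with a median of 235. Its log2 difference was 2.08 ± 0.08. Plscr2 (chr9:92275602-92297752, plus strand) had 15.4, 10.1, 13.9 and 13.8 CPM in YHSCs and 106 to 140 in OHSCs with a median of 127, a log2 difference of 3.28 ± 0.12. The stress gene Nupr1 (chr7:126623249-126630861, minus strand) had 71.6, 75.1, 77.5 and 78.5 CPM in YHSCs. In OHSCs Nupr1 ranged from 246 to 310 with a median of 254, a log2 difference of 1.85 ± 0.06. Aldh1a1 (chr19:20492715-20643465, plus strand) had 143, 146, 144 and 133 CPM in YHSCs and 334 to 360 in OHSCs with a median of 344. Aldh1a1 had the smallest difference, 1.33 ± 0.04, and the tightest libraries, with a coefficient of variation of 2.74% in OHSCs. Of the 50-base stretches of Aldh1a1 transcripts, 3.06% also occur in Aldh1a7.

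**Figure D1:**
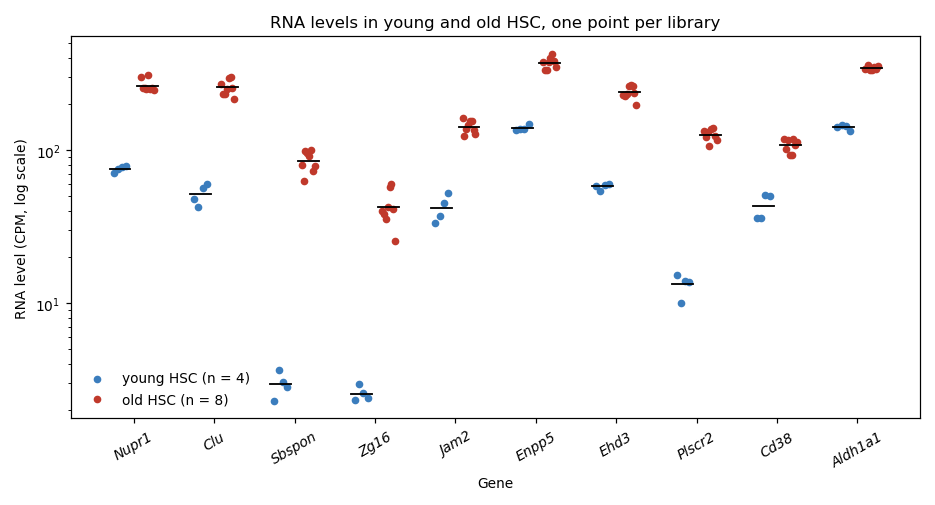
RNA level in CPM (log scale) of the 10 genes, with 1 point per library for YHSCs (blue, n = 4) and OHSCs (red, n = 8) and a line at each mean. The 2 groups do not overlap for any gene, and the gap is widest for Sbspon, from a mean of 2.98 to 85.5 CPM, and Zg16, from 2.58 to 42.8 CPM.

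Among the 8 old libraries, each of 1 mouse, so that mouse and library cannot be told apart, Zg16 varied most, with a coefficient of variation of 26.3%, followed by Sbspon with 16.1% and Clu with 11.7%, while the other 7 genes lay between 2.74% and 10.1%. Old replicate 6 held the highest level of 6 genes and lay above the old median for 9, and old replicate 8 held the lowest level of 4. Old replicate 6 also had the fewest detected genes, 32867 against 37509 to 42539 in the other old libraries. In YHSCs the coefficient of variation ran from 4.01% for Aldh1a1 to 20.1% for Jam2, and it was larger than in OHSCs for Clu, Sbspon, Jam2, Plscr2, Cd38 and Aldh1a1.

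Per kb of exon, Nupr1 led in OHSCs with 105.5 ± 9.81 CPM per kb (SD, n = 8). Enpp5 (76.8 ± 6.68), Clu (75.0 ± 8.80) and Aldh1a1 (70.1 ± 1.92) came next and did not differ among themselves beyond their spread, while Nupr1 above and Plscr2 below them stood clear. Plscr2 (39.8 ± 3.62), Ehd3 (36.6 ± 3.69), Zg16 (34.0 ± 8.96), Sbspon (31.1 ± 5.01), Cd38 (27.8 ± 2.66) and Jam2 (23.6 ± 2.24) formed a lower run in which each overlapped the next. In YHSCs Nupr1 (30.1 ± 1.21), Enpp5 (28.9 ± 1.19) and Aldh1a1 (28.6 ± 1.15) shared the top within their spread. Clu (15.1 ± 2.32), Cd38 (11.1 ± 2.14), Ehd3 (8.90 ± 0.396), Jam2 (6.94 ± 1.39), Plscr2 (4.19 ± 0.710), Zg16 (2.05 ± 0.228) and Sbspon (1.08 ± 0.205) followed in CPM per kb (SD, n = 4). Clu thus stood beside Enpp5 in OHSCs but well below it in YHSCs.

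Genes that work with the 10 or belong to their families were compared between ages with edgeR's quasi-likelihood test and Benjamini-Hochberg adjustment over all genes. They were listed by function or family, but with earlier results of these data known, so the p-values here are not those of an independent choice. Of 49 tested 5 were called higher and 1 lower, where 4.69% of all genes were called higher and 2.83% lower. Of the 5 other scramblase genes, 1 was called higher: Plscr1 rose by 1.06 ± 0.06 (log2, adjusted p = 5.18e-11), from 66.2 to 70.5 CPM in YHSCs to 123 to 157 in OHSCs. Plscr4 was higher by 0.58 ± 0.04 (adjusted p = 3.94e-10) and stayed under the fold cutoff at 1.49-fold. Of 4 receptors that bind clusterin, Vldlr, a lipoprotein receptor, rose by 2.66 ± 0.31 (adjusted p = 1.01e-04), from 16.9 to 25.1 CPM to 69.2 to 181. None of 5 other EHD and recycling genes, 5 other ENPP ectoenzymes or 6 genes of the ATF4 pathway was called, and the median log2 change of the ATF4 list was −0.04. Ehd4 differed by 0.07 ± 0.04 (adjusted p = 0.245).

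Among 6 junction adhesion molecules and partners none was called, although Jam3 was lower by −0.44 ± 0.06 (adjusted p = 2.83e-06) and F11r, which encodes JAM-A, was higher by 0.19 ± 0.04 (adjusted p = 0.00199). In the NAD list of 8 genes, 1 was called higher, the NAD-cleaving Sarm1 at 0.67 ± 0.21 (adjusted p = 0.0223). Bst1, the closest relative of Cd38, was at most 0.783 CPM in any young or old library and differed by 0.12 ± 0.44 (adjusted p = 0.897). Of 13 aldehyde and retinoid genes 10 were tested. Rdh10, which makes retinaldehyde, rose by 1.01 ± 0.13 (adjusted p = 4.59e-05), and Cyp26b1, which degrades retinoic acid, rose by 0.92 ± 0.28 (adjusted p = 0.0392). Aldh1a7, a close copy of Aldh1a1, fell by 1.56 ± 0.33 on the log2 scale (adjusted p = 0.00100), from 0.921 to 1.90 CPM to 0.219 to 0.626, so it went the other way from Aldh1a1. Aldh1a2 did not reach the count filter, at no more than 0.488 CPM. Of 29 other genes often reported as higher in old HSCs, 26 were called higher and 0 lower, with a median log2 change of 1.62. Over all genes 4.69% were called higher and 2.83% lower. This list was written with such results known, so its values are a description and nothing is read from the count. Osmr led them with 3.39 ± 0.16, followed by Selp (3.33 ± 0.10), Mt2 (3.24 ± 0.12) and Trpc1 (3.09 ± 0.16).

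ATAC-seq, which reads open chromatin through insertion of a transposase, was compared in 4 young and 4 old libraries with 15427933 to 26260337 counts in consensus regions. At 9 of the 10 genes, 54 regions overlapped the gene or lay within 5000 bases of a RefSeq start, and Zg16 had none. Gene spans and distances here are those of RefSeq. The gene coordinates printed above are those of GENCODE, which for Nupr1, Zg16, Ehd3 and Cd38 begin farther upstream. Of these regions, 45 passed a minimum of 1.5 CPM in 4 libraries, 16 of them were more open in OHSCs by over 1.5-fold with an adjusted p under 0.01, and 0 were less open. Over all 89245 regions tested, 10.1% were more open and 2.9% less open. The filter can be passed through the old libraries alone, as at the start of Nupr1, and the genes were chosen for the same contrast, so these counts are a description. The median log2 difference was 0.26 for the 45 regions and −0.01 for all. By gene, 4 of 13 regions were more open at Jam2, 3 of 5 at Sbspon, 3 of 4 at Ehd3, 2 of 4 at Enpp5, 2 of 4 at Nupr1 and 2 of 3 at Clu, and 0 of 5 at Cd38, 0 of 5 at Aldh1a1 and 0 of 2 at Plscr2.

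Of 10 regions within 1000 bases of a start 1 was more open, at Nupr1 (chr7:126625394-126625705). It had 1.11, 0.648, 1.88 and 1.33 CPM in YHSCs and 7.24, 8.83, 6.64 and 7.27 in OHSCs, a log2 difference of 2.52 ± 0.18 (SE), and it contains the TGATGNAA match printed above. The more open Jam2 region 21046 bases into that gene holds a match too, and the share over all accessible regions was not computed. A second region, 3716 bases downstream of the start and beyond the end of Nupr1 in RefSeq, went from a mean of 30.4 to 47.5 CPM (0.62 ± 0.06). At the other genes the main start region had a mean of 13.3 to 43.6 CPM in YHSCs, and log2 differences were −0.17 ± 0.05 at Jam2, −0.12 ± 0.07 at Enpp5, −0.01 ± 0.06 at Ehd3 and 0.09 ± 0.08 at Sbspon. They were 0.23 ± 0.09 at Clu, 0.25 ± 0.07 at Cd38, 0.26 ± 0.05 at Plscr2 and 0.27 ± 0.07 at the proximal Aldh1a1 start.

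The widest internal difference was in Enpp5, at chr17:44083153-44083729, 4639 bases into the gene. YHSCs had 1.58, 1.62, 2.46 and 1.37 CPM there and OHSCs 8.44, 8.29, 8.75 and 8.56, a log2 difference of 2.25 ± 0.16. A further Enpp5 region 1011 bases before the start differed by 1.33 ± 0.22. The Clu region printed above, 2860 bases before the start, had 1.62, 1.75, 1.54 and 1.37 CPM in YHSCs and 5.14, 3.82, 4.65 and 5.71 in OHSCs (1.62 ± 0.19). The Ehd3 region printed above, 6142 bases into the gene, had 1.34, 0.972, 2.27 and 1.83 CPM in YHSCs and 4.79, 5.44, 4.53 and 4.30 in OHSCs (1.52 ± 0.19). In each of these regions the groups did not overlap. Ehd3 regions 8440 and 3896 bases into the gene differed by 1.59 ± 0.21 and 0.84 ± 0.23. The Jam2 region printed above, 26028 bases into the gene, had 2.33, 2.92, 2.30 and 2.40 CPM in YHSCs and 3.44, 4.24, 5.88 and 3.71 in OHSCs (0.80 ± 0.18). The other 3 Jam2 regions, at 21046, 30876 and 36340 bases, differed by 1.29 ± 0.17, 0.80 ± 0.13 and 1.21 ± 0.17. The 3 Sbspon regions lay 2882, 9158 and 15520 bases into the gene and differed by 1.03 ± 0.15, 0.79 ± 0.10 and 0.90 ± 0.25. Nearest to the cutoff were the region downstream of Nupr1, at 1.54-fold just past it, and a Nupr1 region 3604 bases before the RefSeq start, at 1.43-fold just short of it.

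**Figure D2:**
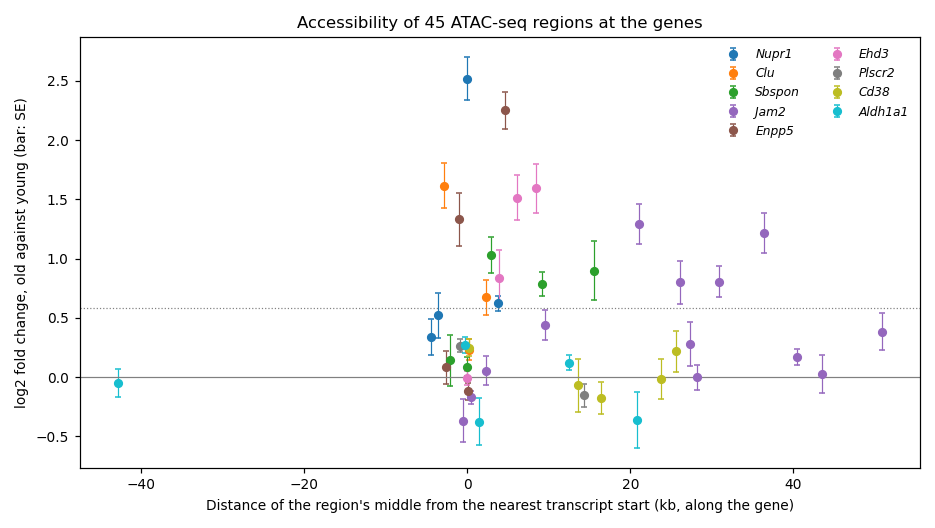
Log2 difference in accessibility (OHSC minus YHSC, ± SE) of the 45 tested regions against their distance in kb from the nearest gene start, with a dotted line at the 1.5-fold cutoff. The start regions lie between −0.37 and 0.27 except the Nupr1 region at 2.52, and the called regions of Enpp5, Ehd3, Jam2 and Sbspon lie inside the genes or upstream.

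The RUNX letters occurred in 7 of the 16 more open regions (43.8%), GATA in 4 (25.0%), AP-1 in 3 (18.8%) and TATAAA in 1 (6.25%). Over all tested regions the shares were 46.2%, 28.3%, 15.9% and 29.3%, and over all more open regions 59.0%, 38.4%, 25.2% and 39.4%. The 16 regions had a median length of 501.5 bases against 672 for all more open regions, and a longer region holds more matches, so these shares are not set against each other by a test.

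H3K27ac, a histone mark of active promoters and enhancers, was measured in 2 libraries per age, as signal from libraries normalized to a fixed number of reads. By gene name 8 of the genes had 21 peaks, and Nupr1 and Zg16 had none. Peaks without a gene name lay 4478 bases downstream of the Nupr1 start (ratio of old to young 1.21) and 2874 bases before the Enpp5 start (1.32). Neither passed the cutoffs below, and both are left out of the counts that follow. All 21 ratios of old to young were above 1, with a median of 1.32 against 1.04 over all 39557 distinct peaks. At a ratio above 1.5 between means and at least 1.2 in each pairing of libraries, 10 peaks were higher and 0 lower, where 9.11% of all peaks were higher and 2.27% lower. Every gene with a peak except Ehd3 had at least 1 that was higher. The age contrast chose the genes, so this too is a description.

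At Plscr2, where no accessible region passed the cutoff, the start peak had signals of 2.00 and 1.93 in YHSCs and 4.64 and 4.74 in OHSCs, a ratio of 2.38. A peak 3555 bases into Plscr2 had 1.23 and 1.46 against 3.97 and 2.76 (2.50), and one at 14716 bases a ratio of 1.15. Start peaks were higher as well at Clu (2.28 and 1.88 against 3.61 and 4.30, ratio 1.90) and Sbspon (3.43 and 3.56 against 5.76 and 6.16, ratio 1.71). The same held for the proximal start of Aldh1a1 (2.33 and 2.40 against 3.87 and 4.09, ratio 1.68) and for Cd38 (3.67 and 3.62 against 5.91 and 5.14, ratio 1.52). By its ratio of means Cd38 was the called peak nearest to the cutoff, it was not called with libraries scaled to the same median (1.42) or without old replicate 1 (1.41), and its start region differed by 0.25 (log2) in accessibility.

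Enpp5 and Jam2 showed the reverse arrangement. The start peak of Enpp5 had 6.28 and 5.48 in YHSCs and 6.16 and 6.14 in OHSCs, a ratio of 1.05. The peak 4684 bases into Enpp5, over the region that was more open, had 1.24 and 0.910 against 2.77 and 3.58, a ratio of 2.95 and the largest of the 21. At Jam2 the start peak had a ratio of 1.28, while peaks 20904 bases (0.499 and 1.17 against 1.496 and 1.97, ratio 2.07) and 9258 bases (ratio 1.61) into the gene were higher. The ratio at 20904 bases was 1.48 without young replicate 1 and 3.48 without young replicate 2, and that at 9258 bases was 1.39 without young replicate 2. The inner Sbspon peak at 9089 bases had a ratio of 1.55, which was 1.44 with libraries scaled to the same median and 1.25 without old replicate 2. Ehd3 had a single peak at its start, with 3.56 and 3.37 against 3.78 and 3.63 (ratio 1.07), although 3 regions inside Ehd3 were more open.

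**Figure D3:**
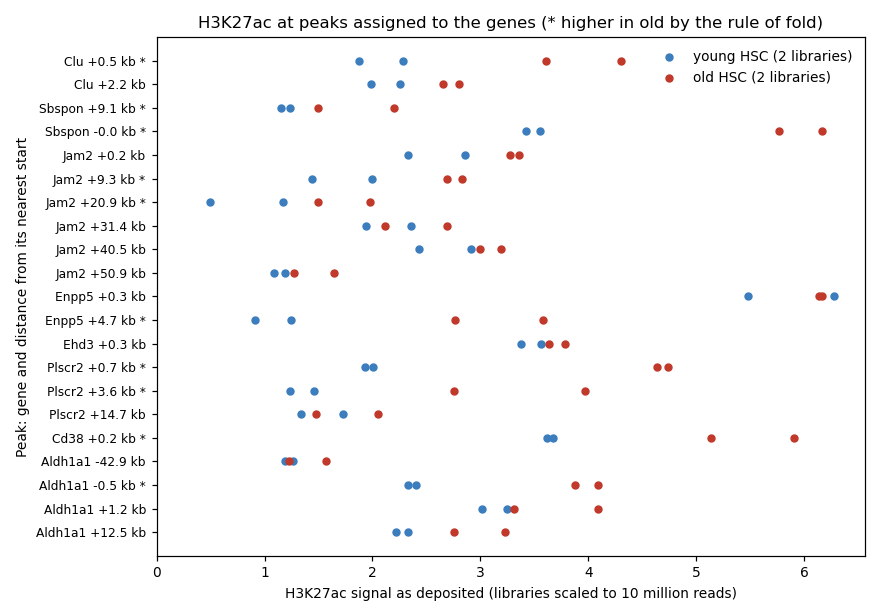
H3K27ac signal per library (blue, YHSC, n = 2, and red, OHSC, n = 2) at the 21 peaks of 8 genes, named by gene and distance from the start, with a star on the 10 peaks past the cutoff. The Plscr2 start at a ratio of 2.38, the inner Enpp5 peak at a ratio of 2.95 and the Clu start at 1.90 are well apart, while the starts of Enpp5 (1.05) and Ehd3 (1.07) overlap or nearly so.

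In YHSCs a peak of H3K4me3, the mark of active starts, was named for 9 of the genes, and the share of all genes with one was not computed. Its mean signal over 2 libraries at the start was 17.1 at Jam2, 16.1 at Enpp5, 13.4 at Nupr1, 11.8 at Cd38, 11.5 at Sbspon and 11.2 at Ehd3. Aldh1a1 (5.55) was near the median of all 33199 peaks, 5.37, Clu (4.84) below it and Plscr2 (2.15) lowest, and Zg16 had no peak. Sbspon had strong young H3K4me3 but only 2.98 CPM of RNA. It also carried H3K27me3, the Polycomb mark of repressed genes, with a signal of 0.606 at its start, above 90.7% of the 55820 peaks, whose median was 0.389. H3K27me3 peaks were further named for Aldh1a1 (0.509 and 0.479), Jam2 (0.465), Clu (0.465, at its end) and Zg16 (0.368). No H3K27me3 peak was named for Nupr1, Enpp5, Ehd3, Plscr2 or Cd38.

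The knockdown of the shorter Btaf1 variant asked what its loss does to OHSCs. The gene-level count holds reads of both variants, so it checks the shRNAs only in part. In culture Btaf1 was 137 and 141 CPM with shControl, 110 and 119 with shRNA1, and 111 and 113 with shRNA2, lower by −0.31 ± 0.05 (log2, edgeR quasi-likelihood test, adjusted p = 0.00151). In transplanted HSCs it was 161 and 165 with shControl, 131 and 139 with shRNA1, and 119 and 118 with shRNA2, lower by −0.37 ± 0.08 (unadjusted p = 8.91e-04, adjusted p = 0.791). The 4 knockdown libraries were set against the 2 controls, with cutoffs of 1.5-fold and 0.05 for the p before adjustment, used for both experiments. The samples are not stated to be separate cultures, so p-values cover only the spread between these samples.

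In cultured HSCs 2 of the 10 genes were called higher after knockdown and 0 lower, where 2.45% of all 19763 genes were called higher and 0.972% lower. Plscr2 had 96.3 and 96.5 CPM with shControl, 135 and 153 with shRNA1, and 159 and 144 with shRNA2, and it rose by 0.60 ± 0.06 (log2, adjusted p = 2.31e-04). Leaving out shRNA2 replicate 1 brought Plscr2 just under the cutoff, at 0.55 with an adjusted p of 3.54e-05. Zg16 was close to silent in culture, with 3 and 1 reads in the controls and 11, 8, 18 and 7 in the knockdown libraries. Its call, at 2.36 ± 0.89 (unadjusted p = 0.0184, adjusted p = 0.195), rests on those few reads: their ratio of 5.42 has a 95% counting interval of 1.97 to 20.8, and without shControl replicate 2 the difference was 1.88 with an unadjusted p = 0.128. Without shRNA1 replicate 1 or shRNA2 replicate 1 Zg16 did not reach the count filter.

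Jam2 and Aldh1a1 were also higher but under the fold cutoff. Jam2 had 18.3 and 18.9 CPM with shControl, 28.9 and 31.2 with shRNA1, and 27.5 and 23.8 with shRNA2 (0.57 ± 0.10, adjusted p = 0.00564). It passed the fold cutoff with shRNA1 alone at 0.67, without shRNA2 replicate 2 at 0.63 and without shControl replicate 2 at 0.59. Aldh1a1 had 132 and 145 CPM with shControl and 181 to 197 in the knockdown libraries (0.43 ± 0.05, adjusted p = 4.09e-04). Enpp5 went from 96.8 and 98.6 CPM to between 110 and 120 (0.21 ± 0.05, adjusted p = 0.0293). Clu alone went down past an adjusted p of 0.05, from 208 and 206 CPM to between 156 and 170 (−0.37 ± 0.04, adjusted p = 2.06e-04). Sbspon (0.34 ± 0.15, adjusted p = 0.298), Nupr1 (−0.10 ± 0.05, adjusted p = 0.358), Cd38 (0.06 ± 0.15, adjusted p = 0.908) and Ehd3 (−0.01 ± 0.05, adjusted p = 0.950) did not pass. The shRNAs differed for Cd38, at 1.23 times the control level with shRNA1 and 0.882 times with shRNA2. For 6 genes all 4 knockdown libraries lay above both controls, as for 14.6% of all genes, and for 2 all lay below, as for 10.8%. The median log2 difference of the 10 was 0.28, against 0.00 over all genes. HSC markers summed to 1793 to 1815 CPM in these controls and 2010 to 2081 after knockdown, with 0 of the 10 genes called (Kit had means of 691, 883 and 717 with shControl, shRNA1 and shRNA2, and Ly6a 99.5, 118 and 248), and erythroid markers to 122 to 124 and 78.4 to 106, and their part in the differences was not tested.

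In transplanted HSCs 1 of the 10 genes was called lower and 0 higher, where 0.811% of all 20350 genes were called lower and 1.43% higher. No gene of the table passed an adjusted p of 0.05 with edgeR, and DESeq2 called 17 higher and 8 lower at an adjusted p below 0.05. The call was Zg16, with 3.68 and 1.49 CPM with shControl, 0.854 and 1.58 with shRNA1, and 0.429 and 1.11 with shRNA2 (−1.39 ± 0.50, unadjusted p = 0.0203, adjusted p = 0.852). The call was lost without shControl replicate 1 (−0.59, unadjusted p = 0.368) and with shRNA1 alone (−1.10, unadjusted p = 0.0663). Nupr1 lay below both controls in all 4 knockdown libraries, at 96.0, 160, 131 and 147 CPM against 197 and 174 (−0.48 ± 0.17, unadjusted p = 0.0201, adjusted p = 0.852), and it was the single one of the 10 to do so, as did 6.45% of all genes. Enpp5 and Aldh1a1 lay above both controls in all 4, as did 8.24% of all genes. Aldh1a1 had 203 and 203 CPM with shControl against 211 to 237 (0.14 ± 0.06, unadjusted p = 0.0485, adjusted p = 0.881).

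Clu, Ehd3 and Jam2 varied widely between transplanted libraries of the same group. Clu had 30.7 and 69.9 CPM in the controls, 20.5 and 62.6 with shRNA1, and 23.3 and 20.02 with shRNA2 (−0.68 ± 0.61, unadjusted p = 0.312). Ehd3 had 56.6 and 68.9 CPM in the controls, 36.3 and 61.5 with shRNA1, and 44.1 and 37.6 with shRNA2 (−0.49 ± 0.20, unadjusted p = 0.0359, adjusted p = 0.875). In both genes shRNA1 replicate 2 stood with the controls. Without it Clu (−1.25, unadjusted p = 0.00334, adjusted p = 0.4002) and Ehd3 (−0.68, unadjusted p = 4.27e-04, adjusted p = 0.372) passed the cutoffs, while without shControl replicate 2 the Clu difference was 0.04. Without shControl replicate 1, where the Zg16 call was lost, the Ehd3 difference was −0.63, past the fold cutoff. Jam2 differed widely within each shRNA, with 47.0 and 49.7 CPM in the controls against 27.5 and 57.2 for shRNA1 and 23.9 and 51.8 for shRNA2 (−0.28 ± 0.36). Sbspon was 10.3 and 11.5 CPM in the controls, 6.18 and 6.48 with shRNA1 and 10.99 and 11.99 with shRNA2, so that the shRNAs differed: shRNA1 alone gave −0.80 (unadjusted p = 0.00233, adjusted p = 0.618) and shRNA2 alone 0.07. Cd38 (−0.28 ± 0.22), Plscr2 (−0.09 ± 0.12) and Enpp5 (0.13 ± 0.09) did not pass. The median log2 difference of the 10 was −0.29, with 8 of them negative, against 0.00 over all genes, and it was −0.16 without shControl replicate 2 and −0.50 without shRNA1 replicate 2. Among granulocyte markers Mpo had means of 18.6 CPM in the controls, 95.1 with shRNA1 and 1.69 with shRNA2, and Elane 6.75, 23.98 and 0.461. The 6 early response genes, which dissociation and handling induce, summed to 312 to 354 CPM in the controls and 238 to 291 after knockdown, erythroid markers to 30.6 to 75.2 and 30.6 to 157, and HSC markers to 3341 to 3466 and 2996 to 3300, and their part was not tested.

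The knockdown effect in transplanted HSCs minus that in cultured HSCs was negative for all 10 genes, with a median of −0.43 against −0.01 over all genes. Without transplanted shControl replicate 1 the median was −0.67, and without transplanted shControl replicate 2 the value of 9 of the 10 was negative. None passed an adjusted p of 0.05 with edgeR, where 45 of 21443 genes (0.21%) did, and 3 had an unadjusted p below 0.05. These were Zg16 (−3.74 ± 0.94, unadjusted p = 0.00135, adjusted p = 0.159), Plscr2 (−0.69 ± 0.15, unadjusted p = 5.28e-04, adjusted p = 0.105) and Aldh1a1 (−0.29 ± 0.09, unadjusted p = 0.00383, adjusted p = 0.237). DESeq2 called Zg16 (−3.81, adjusted p = 0.0353) and Plscr2 (−0.68, adjusted p = 0.00365).

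**Figure D4:**
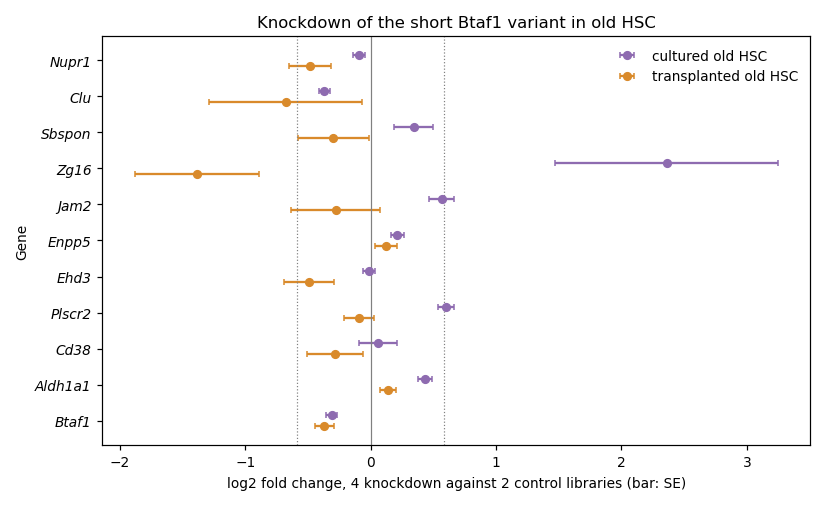
Log2 change after knockdown (± SE) in cultured (purple) and transplanted (orange) HSCs for the 10 genes and Btaf1, with 4 knockdown against 2 control libraries in each and dotted lines at 1.5-fold. Plscr2 (0.60) and Zg16 (2.36) lie past the line in culture, and the transplanted value lies below the cultured one for each of the 10 genes.

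Among the related genes, Cyp26b1 rose in culture by 1.87 ± 0.22 (adjusted p = 2.65e-04), from 1.17 and 2.15 CPM in the controls to between 5.79 and 6.42. In transplanted HSCs it was lower by −0.72 ± 0.29 (unadjusted p = 0.0361, adjusted p = 0.875), and the difference between both effects passed the test (−2.59 ± 0.42, adjusted p = 0.0301), although no gene was called lower there when cultured shControl replicate 1 was left out. Sarm1 was called higher in culture at 1.24 ± 0.53 (unadjusted p = 0.0343, adjusted p = 0.270) with no more than 0.895 CPM in any cultured library, and Aldh1a7 was called higher in transplanted HSCs at 1.08 ± 0.46 (unadjusted p = 0.0445, adjusted p = 0.881). The cultured scramblases Plscr1 (0.29 ± 0.04, adjusted p = 8.45e-04) and Plscr4 (0.31 ± 0.06, adjusted p = 0.00621) were higher by less than 1.5-fold. Of the 29 other genes often reported as higher in old HSCs, 2 were called higher in culture, where 2.45% of all genes were, and 1 lower after transplantation, where 0.811% were.

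Levels across experiments were set side by side without a test, since kits, sequencers, culture and host cannot be told apart there. Sbspon was 85.5 CPM in OHSCs, 4.96 in cultured and 10.9 in transplanted controls, and Zg16 was 42.8, 0.0485 and 2.58. For both genes the manipulated OHSC controls were therefore closer to YHSCs than to freshly sorted OHSCs. Jam2 (143, 18.6 and 48.4) and Cd38 (108, 22.1 and 44.2) were lower in culture than in YHSCs and near the YHSC level after transplantation. Clu (258, 207 and 50.3) and Ehd3 (240, 166 and 62.8) kept most of their level in culture and were near that of YHSCs after transplantation. Enpp5 (373, 97.7 and 330) had the opposite order, low in culture and high after transplantation. Plscr2 (127, 96.4 and 166), Nupr1 (265, 166 and 186) and, after transplantation, Aldh1a1 (346, 139 and 203) stayed above their YHSC means of 13.3, 75.7 and 141 CPM.

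**Figure D5:**
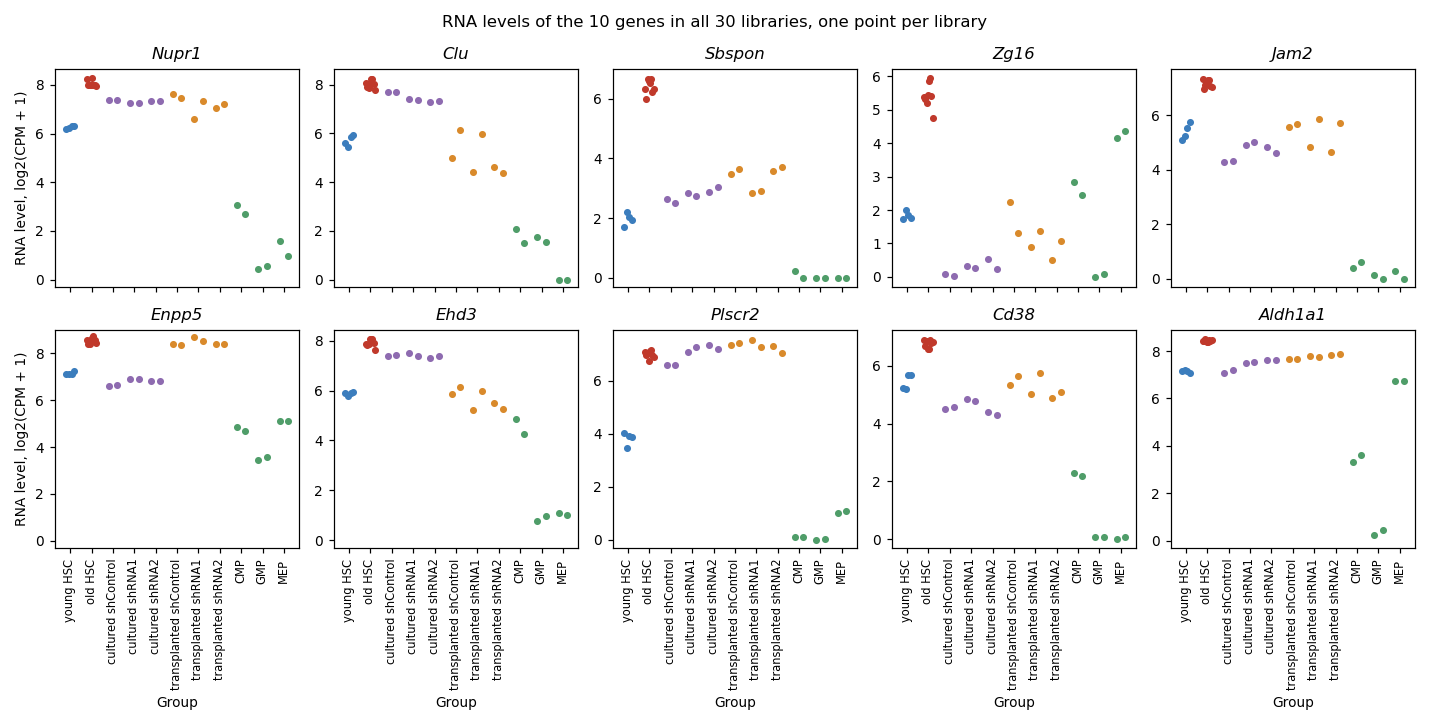
RNA level as log2(CPM + 1) of each gene in the 30 libraries, 1 panel per gene and 1 point per library, grouped as YHSC, OHSC, cultured, transplanted and progenitor libraries. The old libraries are highest for most genes, Plscr2 is higher in the transplanted controls (a mean of 166 CPM) than in OHSCs (127 CPM), and Aldh1a1 and Zg16 are high in MEP while most other genes are near 0 in GMP and MEP.

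The myeloid progenitors were compared to ask where else in early blood formation these genes are read. Megakaryocyte markers (8 genes) summed to a mean of 651 CPM in CMP, 53.3 in GMP and 47.8 in MEP. Erythroid markers (7 genes) summed to 273, 7.14 and 6310, so the MEP libraries were rich in erythroid and poor in megakaryocyte markers. The part of these markers in the differences below was not tested. The YHSC mean was 11.9 times the CMP mean for Nupr1, 20.5 times for Clu, 11.6 times for Cd38, 13.9 times for Aldh1a1 and 97.4 times for Jam2, given without a test because the experiments differ. It was 5.28 times for Enpp5 and 2.54 times for Ehd3, and for Aldh1a1 only 1.34 times the MEP mean. Sbspon had no reads in GMP or MEP, where its YHSC level was at least 34.0-fold and 35.2-fold higher, with 3 reads per library as the floor, and it did not pass the count filter. Zg16 alone was lower in YHSCs than in CMP, with a ratio of means of 0.480.

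Between progenitors edgeR's quasi-likelihood test was run on 9 genes, with 1.5-fold and an adjusted p of 0.05 as cutoffs. MEP against CMP had 3 genes higher and 4 lower, against 17.5% and 29.2% of all 18234 genes. Aldh1a1 had 8.98 and 11.3 CPM in CMP, 0.169 and 0.362 in GMP and 105 and 106 in MEP, and rose in MEP by 3.497 ± 0.12 over CMP (log2, adjusted p = 2.72e-11) and by 8.53 ± 0.20 over GMP (adjusted p = 4.00e-13). Its MEP level was close to that of YHSCs. Aldh1a7 followed it, with 61.5 and 70.9 CPM in MEP and a rise of 5.40 ± 0.18 over CMP (adjusted p = 1.22e-11). Zg16 had 6.22 and 4.51 CPM in CMP, 0 and 0.0603 in GMP and 16.8 and 19.5 in MEP, a rise of 1.87 ± 0.21 over CMP (adjusted p = 4.38e-06). Zg16 was the one gene whose MEP level exceeded that of YHSCs. Plscr2 was low throughout, with 6 reads in all in CMP and 77 in MEP, a ratio of 13.1 with a 95% counting interval of 5.74 to 36.7 (3.76 ± 0.73, adjusted p = 4.94e-04).

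Cd38, Ehd3, Nupr1 and Clu were lower in MEP than in CMP. Cd38 had 3.92 and 3.59 CPM in CMP and 2 reads in all in MEP, a ratio of 133 with a 95% counting interval of 36.5 to 1104 (adjusted p = 4.57e-07). Ehd3 had 27.7 and 18.2 CPM in CMP, 0.732 and 0.965 in GMP and 1.13 and 1.02 in MEP, and fell by 4.30 ± 0.26 from CMP to MEP (log2, adjusted p = 6.19e-09). Nupr1 had 7.29 and 5.41 CPM in CMP and 2.03 and 0.934 in MEP (−1.98 ± 0.34, adjusted p = 1.79e-04). Clu had 3.23 and 1.82 CPM in CMP, 2.34 and 1.93 in GMP and no reads in MEP, at least 29.8-fold lower than in CMP (adjusted p = 1.47e-06). Enpp5, at 24.8 and 28.4 CPM in CMP and 33.4 and 33.8 in MEP, differed by 0.45 ± 0.11 (adjusted p = 0.00326) and stayed under the fold cutoff. Jam2 was at most 0.533 CPM in every progenitor library (−1.78 ± 1.1, adjusted p = 0.181), and without MEP replicate 1, which held all of its MEP reads, it was called lower (adjusted p = 0.0413).

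GMP against CMP had 6 genes lower and 0 higher, against 10.5% and 6.24% of all genes. They were Zg16 (−7.15 ± 0.49, adjusted p = 2.53e-07), Cd38 (−5.71 ± 0.57, adjusted p = 5.77e-06), Aldh1a1 (−5.04 ± 0.24, adjusted p = 1.21e-08), Ehd3 (−4.54 ± 0.27, adjusted p = 7.05e-08), Nupr1 (−3.68 ± 0.40, adjusted p = 1.40e-05) and Enpp5 (−1.12 ± 0.12, adjusted p = 1.19e-05). Zg16 had 2 reads in all in GMP and Cd38 had 4. Clu differed by −0.03 ± 0.36 (adjusted p = 0.970), with an error that leaves room for a change in either direction. MEP against GMP had 5 genes higher, namely Zg16, Aldh1a1, Plscr2, Nupr1 and Enpp5, and Clu lower, against 16.6% and 27.2% of all genes. Without MEP replicate 1 Nupr1 was not called there (1.03, adjusted p = 0.0679). The median log2 differences of the 9 genes were −1.78 in MEP and −3.68 in GMP against CMP and 1.57 in MEP against GMP, also with Clu set to its bound, while those of all genes were −0.07, 0.01 and −0.03. The first of these was the value of Jam2, and it was −2.66 without MEP replicate 1 and −0.81 without MEP replicate 2, and MEP against GMP gave 1.03 without MEP replicate 1.

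Over the 30 RNA libraries the mean standardised log2(CPM + 1) of the 10 genes was −0.10 to −0.02 in YHSCs, 0.877 to 1.03 in OHSCs, and lowest in GMP at −1.999 and −1.98. Jam2 followed the mean of the other 9 most closely, with a Pearson r of 0.968 over libraries, and Zg16 least, with 0.346, while the other 8 lay between 0.841 and 0.956. Outside the 10, the genes most like this mean, among 15938 with at least 1 CPM on average, were Mindy1 (r = 0.981), Pbx3 (0.979) and Cysltr2 (0.979). Cysltr2, a receptor for cysteinyl leukotrienes, had a mean of 35.2 CPM in YHSCs and 117 in OHSCs, Pbx3, a homeodomain protein, 29.7 and 70.5, and Mindy1, a deubiquitinase, 137 and 211. The libraries share experiment, kit and cell type within groups, so these correlations describe the groups and carry no p.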

How the data were processed

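RNA-seq was analysed in YHSCs, OHSCs, cultured and transplanted shRNA-treated OHSCs and young progenitors, ATAC-seq in YHSCs and OHSCs, and histone ChIP-seq in both. The authors trimmed reads, aligned them with STAR to mm10 and deposited raw counts per gene made with featureCounts and GENCODE M22. For ATAC-seq the authors deposited counts of deduplicated unique reads per consensus MACS region. The ChIP-seq values are signal per peak, which the authors scaled to the same read number in each library before they were deposited. The H3K27ac libraries differ in the read depth that the study lists, these values carry no read counts, and no counting interval was made from them. The 92 spike-in rows of the YHSC and OHSC files were left out. Of the deposited columns, 8 with values of single old samples did not match 1 label and were not used (4 of ATAC-seq, 4 of H3K4me3 and H3K27me3), and neither were the authors' own ratio and log2 ratio columns nor the H3K36me3 table.

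Counts were filtered with filterByExpr, scaled with TMM and tested with edgeR 4.0.16 (glmQLFit with robust dispersion, glmQLFTest, R 4.3.3) within each experiment, with Benjamini-Hochberg adjustment over all features. Cutoffs were a 1.5-fold change with an adjusted p under 0.05, or for knockdown an unadjusted p under 0.05, and for ATAC-seq over 1.5 CPM in 4 libraries and an adjusted p under 0.01. The scripts were tested on simulated counts. DESeq2 1.42.0 served as an alternative. Levels of different genes were compared per kb of exon in GENCODE M21. Counting intervals (95%, exact) and the floor of 3 reads per library cover counting error only. Libraries of different experiments were not tested against each other. No libraries held the same values. The genes and the lists of related genes were chosen with earlier results of these data known. All 10 genes were named, with at most 4 genes per list past a test, the relatives Plscr1, Plscr4, Ehd4, Bst1, Aldh1a7, Aldh1a2, F11r and Jam3 whatever their values, the 3 genes most like the mean, and Btaf1.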

Additional observations from a re-analysis of the deposited data

Results flagged for a closer look

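Of 52 groups of 4 to 10 libraries examined for a library far from the rest, 2 held one by Dixon's ratio of gap to range (critical value 0.829 for 4 libraries), where chance gives about 1 in 20. The Enpp5 RNA level of YHSC replicate 4 was 148.8 CPM, with the other young libraries at 136.5 to 138.4 (ratio 0.846). In the accessible Jam2 region printed above (starting at 84799934 on chromosome 16), YHSC replicate 2 had 2.92 CPM and the others 2.30 to 2.40 (ratio 0.845). In both cases the value lay below every OHSC library.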

How the results depend on the processing

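The 10 genes were higher in OHSCs in each alternative run. For the counts of calls, 121 values kept within 1.5 times the reported count and 19 did not, and the causes were not tested. Without the count filter, all genes called lower numbered 354 in culture and 341 after transplantation (192 and 165 with it), the difference between knockdown effects gave 48 higher and 46 lower (22 and 23), and 1 accessible region was less open. With libraries scaled to the same median signal, or with 0.5 added to each signal, 7 H3K27ac peaks were higher: Cd38 and the inner Sbspon peak were lost in both cases, the Jam2 peak at 20904 bases in the first and that at 9258 bases in the second. With shRNA1 alone in culture 1 of the 10 genes (Jam2) was called higher and 292 of all lower, and with shRNA2 alone 1 (Plscr2) was higher. With shRNA1 alone after transplantation 1 of the 10 was called lower, Sbspon in place of Zg16. With shRNA2 alone 3 of the 10 (Zg16, Clu and Ehd3) and 342 of all were called lower. At an adjusted p under 0.05 culture gave 1 of the 10 higher and 115 higher and 64 lower of all, and transplantation gave 0 of the 10 and 0 higher and 0 lower of all. DESeq2 called 2 of the 10 and 183 higher and 116 lower of all in the difference between knockdown effects. Uncalled values that changed sign were Cd38 (−0.18) with shRNA2 alone and Ehd3 (0.025) with shRNA1 alone in culture, Sbspon (0.075) with shRNA2 alone and Plscr2 (0.017) with shRNA1 alone after transplantation, and Clu in GMP against CMP (0.013) with the replicate block.

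Leaving out 1 library in turn gave 0 to 3 of the 10 higher in culture, 1 to 3 lower after transplantation, and 0 to 1 lower with 0 to 61 higher and 0 to 56 lower of all genes in the difference between effects. Where 1 control remained, it was assumed to vary like the other groups. For the related genes in OHSCs 1 to 3 were lower (3 without old replicate 4), accessible regions more open numbered 12 to 15 and higher H3K27ac peaks 8 to 9. Ranges that crossed 0 were −0.031 to 0.15 for Cd38 and −0.037 to 0.0071 for Ehd3 in culture, −1.25 to 0.036 for Clu after transplantation and −0.87 to 0.41 for its difference between effects, −0.39 to 0.45 for Clu and −0.074 to 0.035 for Btaf1 in GMP against CMP, and −4.22 to 5.06 for Jam2 in MEP against GMP. In that difference Plscr2 passed without shRNA1 replicate 1 (−0.78, adjusted p = 0.0184 by edgeR) and Ehd3 without shRNA1 replicate 2, both of transplantation (−0.66, adjusted p = 0.0325 by edgeR).

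The libraries that share a replicate number deviated together only with correlations of −0.014 to 0.058, so they share a number and nothing more is known. With the number as a replicate block, calls over all genes were 459 higher and 187 lower in culture and 268 and 160 after transplantation, and no call among the 10 genes changed. Depth limits the statements on Zg16 in culture and GMP, on Sbspon, Jam2 and Plscr2 in progenitors, on Cd38 in GMP and MEP and on Clu in MEP, which rest on few or no reads.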
